A study of Solanum lycopersicum with 8 samples.

Results

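The shortest chromatin loops in the deposited list for tomato inflorescences span 10 kb, and they made up 3916 of its 9573 loops. The members were chosen by their span alone, as the loops whose anchor midpoints lie 10 kb apart, so their number and their share of the list describe that choice and were not tested. Contacts between parts of the chromosomes had been measured in 2 samples by Hi-C, a method that joins and sequences pieces of DNA held near each other by cross-linking. The tissue was the cauliflower-like inflorescence of the anantha-e1546 mutant in the M82 background, taken from 2 plants at 10 weeks after sowing, at 3.3 g and 3.1 g. No inflorescence without the mutation was available for comparison here, so the positions below hold for mutant tissue, which is enriched in meristems. The series also holds ATAC-seq of the terminal leaflet of young M82 leaves in 6 samples, used here only as a number of accessible regions per chromosome. The growth text names the anantha mutant for the leaf plants too, while their genotype label reads M82.

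A loop in such a list is a pair of bins that touch more often than their distance along the chromosome predicts. In plants, contacts of this kind are known to join genes, the start and the end of the same gene, and distant regulatory sequence to its target, and they form without the CTCF protein that marks loop ends in mammals. Tomato chromosomes carry most genes in their distal arms, around a broad pericentromeric block of repeat-rich heterochromatin. Bins were 5 kb wide, so a 10 kb loop joins 2 bins that have a single bin between them, and it is the shortest span in the list. The next span, 15 kb, is held by 492 loops, and spans of 20, 25 and 30 kb by 470, 495 and 426, so the number of loops drops sharply between 10 and 15 kb and little from there to 30 kb. Beyond that it declines again, to 290 at 40 kb and 50 at 100 kb. How far the calling of loops or the thinning of close calls shapes this step was not tested. The list is combined over both samples and carries no contact count, score or q-value, so depth, loop strength and the spread between plants are unknown. Errors below are spreads over the 12 chromosomes or counting intervals (exact Clopper-Pearson), and they cover no variation between plants. The counting intervals treat loops or windows as independent. Loops that cluster, overlap or share bins are not, so these intervals may be too narrow. Positions are 1-based and belong to the assembly of the loop list, which is not named in the sources used here. No gene, accessible region or base sequence was therefore placed on them.

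The 10 kb loops were a large share of the list on every chromosome. They made up 40.9% of all loops (95% interval 39.9 to 41.9%) and 40.4 ± 4.22% as a mean over chromosomes (SD, n = 12). The share was highest on chromosome 1, at 46.1% (572 of 1241 loops, 95% interval 43.3 to 48.9%). Chromosomes 6, 2 and 3 followed at 44.9%, 44.7% and 43.9%. It was lowest on chromosome 9, at 33.8% (250 of 740 loops, 95% interval 30.4 to 37.3%), and it was close to that on chromosomes 5, 7 and 8, at 35.8%, 35.9% and 36.0%. The intervals of chromosomes 1, 2, 3 and 6 lay above those of chromosomes 5, 7, 8 and 9, and the shares of chromosomes 4, 10, 11 and 12 lay between them. As the intervals take loops as independent, this order is a description and was not tested.

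Density differed more than share. There were 4.95 ± 1.91 loops of 10 kb per Mb of extent (SD, n = 12 chromosomes), where the extent runs from the first base to the last anchor bin. Chromosome 2 carried 9.31 loops of 10 kb per Mb (513 loops), and chromosomes 6, 3 and 1 carried 6.80, 6.54 and 6.17 per Mb. Chromosome 12 carried 2.88 per Mb (203 loops), the lowest value. The densest chromosome thus had 3.23-fold the density of the sparsest, against 2.90-fold for the loops of over 10 kb. Chromosomes with more leaf accessible regions per Mb had more 10 kb loops per Mb (Pearson r = 0.98 over 12 chromosomes) and a higher share of them (r = 0.62, Spearman rho = 0.59). The longer loops per Mb also went with the leaf regions (r = 0.89). These values are descriptions without a p. Both lists share the chromosomes and whatever part of each assembly reads can be placed on, and they come from different tissues.

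**Figure D1:**
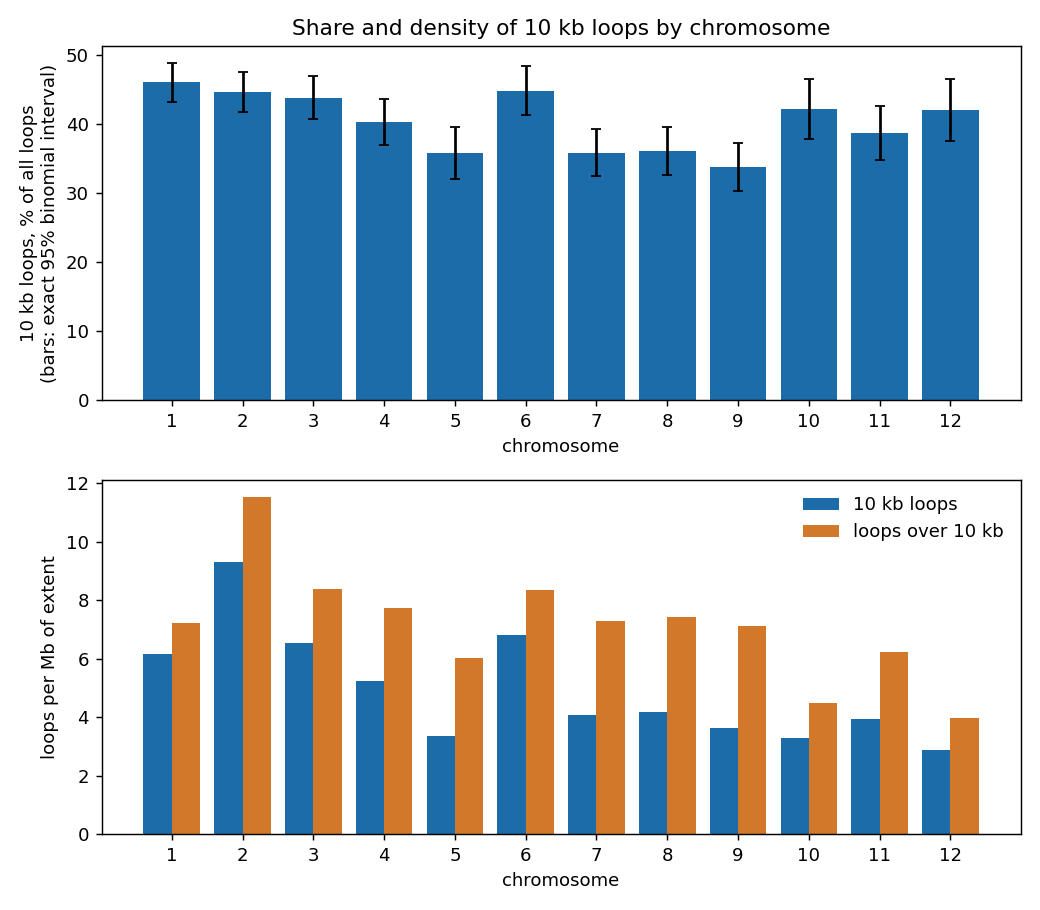
The upper panel gives the percentage of loops that span 10 kb on each of the 12 chromosomes, with exact 95% binomial intervals, and the lower panel the loops per Mb of extent for 10 kb loops and for all longer loops. The share runs from 33.8% on chromosome 9 to 46.1% on chromosome 1, and chromosome 2 has the highest density of both classes.

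The 10 kb loops crowded towards the chromosome tips more than the longer loops did. On average over chromosomes, 90.8% of the 10 kb loops and 76.0% of the longer loops lay in the chromosome ends, meaning the outer 20% of the extent on each side. The difference was 14.8 ± 4.04 percentage points (SD, n = 12; 95% interval 12.2 to 17.4; exact two-sided sign-flip permutation p = 0.000488, the smallest possible, adjusted 0.000814 over 5 tests). It was positive on 12 of 12 chromosomes, from 7.63 points on chromosome 2 to 21.9 points on chromosome 11. The chromosomes are parts of a single list and not replicates, so this p measures how uniform the difference was over chromosomes. The contrast was with the long loops: against loops of 15 to 40 kb the difference was 0.60 points (95% interval −1.03 to 2.24, exact permutation p = 0.504), and against loops of 45 kb or more it was 26.3 points.

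Seen by distance from the nearer tip, the 10 kb loops thinned out steeply. Within 1 Mb of a tip there were 21.3 loops of 10 kb per Mb (512 loops), and between 1 and 2 Mb there were 20.4. Density was 15.8 per Mb at 2 to 5 Mb, 8.11 at 5 to 10 Mb and 2.87 at 10 to 20 Mb. Beyond 20 Mb from either tip it was 0.348 per Mb, with 112 loops in 321 Mb. Loops of 15 to 40 kb took a similar course, from 11.7 per Mb in the first 1 Mb to 0.196 per Mb beyond 20 Mb. Loops of 45 kb or more had a flatter course, with 5.25 per Mb in the first 1 Mb, 7.22 at 2 to 5 Mb and 1.82 beyond 20 Mb. The share of 10 kb loops in the list thus ran from 55.7% in the first 1 Mb to 14.7% beyond 20 Mb.

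The ratio of 10 kb loops to loops of 15 to 40 kb moved far less than that share. It was 1.82 within 1 Mb of a tip, 1.69 at 1 to 2 Mb, 1.44 at 2 to 5 Mb, 1.46 at 5 to 10 Mb, 1.40 at 10 to 20 Mb and 1.78 beyond 20 Mb. Over chromosomes it was 1.53 ± 0.18 (SD, n = 12), from 1.27 on chromosome 4 to 1.95 on chromosome 10. Of the 492 loops of 15 kb, just outside the limit that chose the members, 88.6% lay in the chromosome ends (95% interval 85.5 to 91.3%), beside 88.2% of the 10 kb loops (87.2 to 89.2%) pooled over chromosomes.

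The chromosome arms were not equally supplied. When the 12 extents were each cut into 20 equal parts, the last part held 992 loops of 10 kb (24.8 per Mb) and the first part 611 (15.2 per Mb). Parts 5 to 12, the middle of the chromosomes, held between 4 and 11 loops of 10 kb each. Chromosome 1 had 69 loops of 10 kb in its first 20% and 453 in its last 20%, and chromosome 6 had 39 and 250. Chromosomes 5 and 11 had the reverse order, with 133 and 92 on chromosome 5 and 134 and 90 on chromosome 11. Chromosome 2 had 6 in its first 20%, 286 in its last 20% and 221 in between, and it thereby held nearly as many interior 10 kb loops as the other 11 chromosomes together, which had between 4 and 66 each. Tomato chromosome 2 is known for a short arm taken up by ribosomal DNA.

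**Figure D2:**
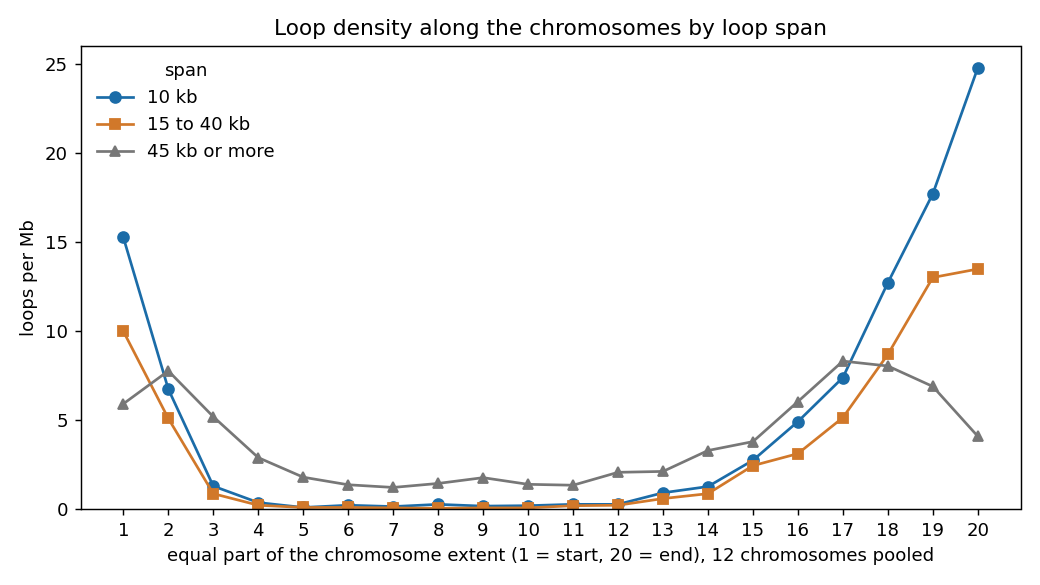
Loops per Mb in 20 equal parts of the chromosome extent, pooled over 12 chromosomes, for loops of 10 kb, of 15 to 40 kb and of 45 kb or more. The 10 kb loops reach 15.2 per Mb in part 1 and 24.8 per Mb in part 20 and are under 0.3 per Mb in parts 5 to 12, whereas loops of 45 kb or more peak further in, in part 2 on one arm and part 17 on the other.

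In windows of 1 Mb the 10 kb loops were more concentrated than the longer loops. Of 796 full windows, 442 held no 10 kb loop (55.5%, 95% interval 52.0 to 59.0%), and 210 held no longer loop (26.4%). The median window held 0 loops of 10 kb and 3 longer loops. Windows with at least 10 loops of 10 kb numbered 162 (20.4%), and they held 3234 of the 3753 loops of 10 kb in full windows (86.2%). The 79 densest windows held 53.6% of the 10 kb loops, and the 79 windows densest in longer loops held 35.6% of the longer loops. The longer loops are more numerous (5657 against 3916) and include those of 45 kb or more, which had the flatter course. Loops of 15 to 40 kb alone were not counted by window. Beyond 20 Mb from either tip they too were scarce, at 0.196 per Mb against 0.348 for the 10 kb loops.

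Several of the windows with the most 10 kb loops lay side by side. The fullest was 65000001 to 66000000 on chromosome 3, with 38 loops of 10 kb beside 17 longer loops. The windows 64000001 to 65000000 and 63000001 to 64000000 of the same arm held 32 and 31. On chromosome 1, 4 windows in a row from 80000001 to 84000000 held 31, 33, 31 and 32 loops of 10 kb. Chromosome 2 had 33 at 53000001 to 54000000 and 32 at 42000001 to 43000000, the latter inside the middle 60% of the extent. Chromosome 6 had 31 at 45000001 to 46000000 and, tied with it, 31 at 51000001 to 52000000. In all, 17 windows held at least 30 loops of 10 kb.

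A window had few 10 kb loops until it held several longer loops. Windows with 1 or 2 longer loops held a mean of 0.225 loops of 10 kb, and those with 3 to 5 held a mean of 0.438. Windows with 6 to 10 longer loops held a mean of 3.95, those with 11 to 15 a mean of 9.55 and those with 16 to 20 a mean of 16.3. Above 20 longer loops the mean was 17.9. Per longer loop, the number of 10 kb loops was 0.164 in windows with 1 or 2 longer loops, 0.116 in those with 3 to 5 and 0.494 in those with 6 to 10. It was 0.734 at 11 to 15 longer loops, 0.921 at 16 to 20 and lower again, at 0.689, above 20. Over all windows the numbers of 10 kb and longer loops correlated with r = 0.77 (n = 796 windows of 1 list, given as a description).

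Some windows went against this order. The window 8000001 to 9000000 on chromosome 9 held 22 longer loops and no 10 kb loop, and their median span was 280 kb. Windows with no 10 kb loop beside 18, 17 and 16 longer loops lay at 4000001 to 5000000 on chromosome 6, at 8000001 to 9000000 on chromosome 8 and at 55000001 to 56000000 on chromosome 10. The median spans of their longer loops were 303, 400 and 305 kb. A window at 30000001 to 31000000 on chromosome 2 had 13 longer loops and no 10 kb loop with a median span of only 80 kb. These windows were chosen after their values were seen. In the other direction, 10 windows held a 10 kb loop and no longer loop, of which 5 lay on chromosome 12. Among the 195 windows with at least 20 loops of any span, the share of 10 kb loops ran from 0% to 76.0%, with a median of 47.5% and quartiles of 37.2 and 57.5%.

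**Figure D3:**
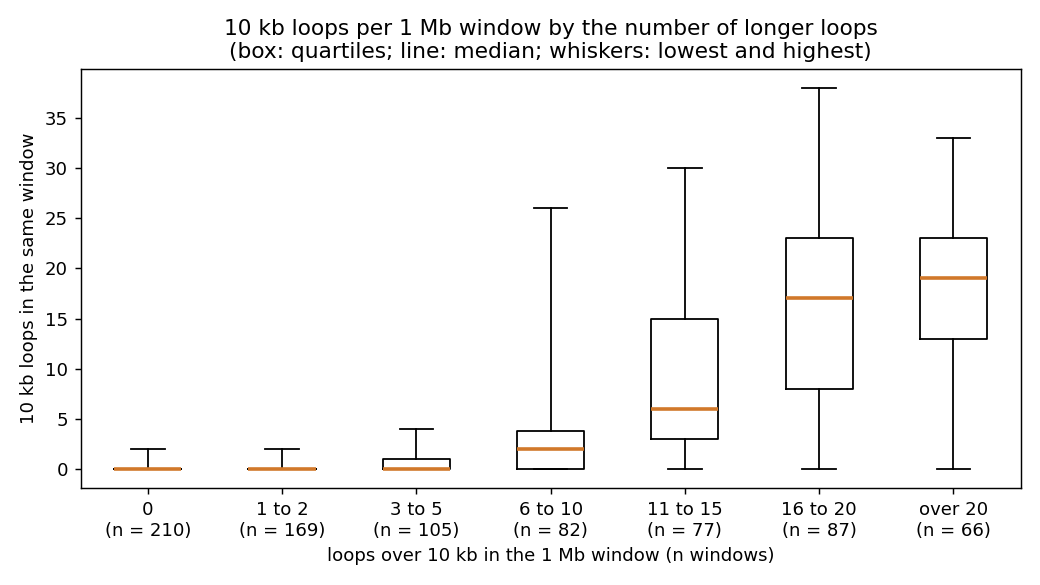
Number of 10 kb loops in each of 796 windows of 1 Mb, grouped by the number of longer loops in the same window; boxes give quartiles, lines medians and whiskers the lowest and highest window. The median is 0 up to 5 longer loops, 2 at 6 to 10, 17 at 16 to 20 and 19 above 20.

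Long stretches held no 10 kb loop. Stretches of at least 1 Mb without any numbered 109 and covered 68.3% of the summed extents, against 32.1% for stretches without a longer loop. The whole span of a loop ended a stretch, and loops of 25 kb or more lay over 40.9% of the extents. Longer loops therefore left less room for such stretches by their span and number alone. How much of the gap this accounts for was not tested. The longest stretch without a 10 kb loop ran from 7725001 to 39710000 on chromosome 8, 32.0 Mb, and 51 longer loops lay wholly within it. The next were 11940001 to 40975000 on chromosome 1 (29.0 Mb, 18 longer loops) and 21905001 to 47285000 on chromosome 7 (25.4 Mb, 25 longer loops). Chromosome 5 had 21.1 Mb without any from 22085001 to 43215000, and chromosome 6 had 20.5 Mb from 5690001 to 26220000. The longest stretch of a chromosome without a 10 kb loop was at least 5.76 Mb on 12 of 12 chromosomes. Gaps in the assembly and repeats that reads cannot be placed on may make up some of this length, and their part was not tested.

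A few 10 kb loops stood far from any other. Of the 3916, 57 had no other 10 kb loop starting within 1 Mb, and they were found on 12 of 12 chromosomes, 39 of them in the middle 60% of the extent. The most isolated spanned 43200001 to 43215000 on chromosome 12, with its nearest 10 kb loop 13.5 Mb away. Another, at 40975001 to 40990000 on chromosome 1, had its nearest 11.9 Mb away. Of the 57, 21 lay inside a longer loop (36.8%, 95% interval 24.4 to 50.7%). Of all 10 kb loops, 33.4% lay inside a loop of 25 kb or more and 35.3% inside any loop of over 10 kb. Both values fall within that interval.

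Most 10 kb loops had close neighbours. The median distance from the start of a 10 kb loop to the start of the next was 35 kb, with quartiles of 20 and 75 kb. With neighbouring starts at most 50 kb apart counted as a group, 3264 of the 3916 (83.4%, 95% interval 82.1 to 84.5%) fell into 794 groups and 652 stood alone. Such groups were not counted for longer loops. How far they follow from the density of 10 kb loops alone was not tested. The median group had 3 members and was 70 kb long. Groups of at least 10 members numbered 45 and held 587 of the 10 kb loops. The largest ran from 62500001 to 63360000 on chromosome 3, with 27 loops of 10 kb in 860 kb. It was followed by 47705001 to 48100000 on chromosome 2, with 21 in 395 kb, and by 65335001 to 65820000 on chromosome 3, with 20 in 485 kb. Chromosome 4 had 19 in 370 kb at 60815001 to 61185000, and chromosome 7 had 18 in 465 kb at 66085001 to 66550000.

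No start distance stood out among all pairs of 10 kb loops on a chromosome. No 10 kb loop started 5 kb from another, and no loops of the list lay that close at both ends. At distances of 30 to 100 kb there were 356 to 425 pairs for each 5 kb step, with a mean of 385 pairs. The mean was 374 pairs at 105 to 200 kb, 367 at 205 to 300 kb and 361 at 305 to 500 kb. The mean number of pairs per step thus fell only from 385 to 361 between the first and the last of these ranges. The groups above therefore do not by themselves show clustering beyond the wider density of 10 kb loops.

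Some 10 kb loops lay end to end, the next beginning in the bin where the last ended. Such chains took in 785 of the 10 kb loops (20.0%, 95% interval 18.8 to 21.3%) in 364 chains. Chains of 2 were by far the commonest, with 316, and there were 41 of 3, 5 of 4 and 2 of 5. The chains of 5 spanned 77830001 to 77885000 on chromosome 1 and 53390001 to 53445000 on chromosome 2, each 55 kb long. Chains of 4 lay on chromosome 1 at 81390001 to 81435000, 88915001 to 88960000 and 91025001 to 91070000, on chromosome 2 at 48000001 to 48045000 and on chromosome 4 at 61110001 to 61155000. The share of 10 kb loops in chains ran from 12.5% on chromosome 7 to 24.3% on chromosome 1. Loops that began 1 bin after the bin where the last ended gave 710 in place of 785, so exact abutment was about as common as the nearest alternative. Chains of longer loops were not counted.

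About 1 in 3 of the 10 kb loops lay within the span of a longer loop, which was less than after shifts of 25 to 100 kb, though not less than at the nearest positions. Loops of at least 25 kb were used as the containing loops, because the spacing of calls in the list cannot keep such a loop from enclosing a 10 kb loop. Of the 3916, 1307 lay within one (33.4%, 95% interval 31.9 to 34.9%), shared anchor bins included. Strictly inside, with neither anchor shared with the containing loop, were 856 (21.9%). When every 10 kb loop was moved by 25, 50, 75 and 100 kb to each side, 36.6% did. The mean over chromosomes was 32.9% as listed and 36.1% after the shifts, a difference of −3.26 ± 2.32 percentage points (SD, n = 12; 95% interval −4.73 to −1.78; exact two-sided sign-flip permutation p = 0.000488, adjusted 0.000814). The listed share was the lower on 12 of 12 chromosomes, from −8.20 points on chromosome 5 to −0.09 points on chromosome 8.

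The size of this gap depended on how far the loops were moved. At shifts of 5 kb the share inside was 31.3% on one side and 31.0% on the other, below the listed value, and at 25 kb it was 34.5% and 34.3%. At 50 kb it was 36.3% and 35.9%, at 100 kb 37.4% and 38.8%, and at 200 kb 37.8% and 38.1%. Shifts of only 15 to 25 kb gave a difference of −0.67 points (95% interval −1.65 to 0.31, exact permutation p = 0.165), and shifts of 50 to 500 kb gave −5.30 points. Among 10 kb loops of the chromosome ends alone, the difference was −2.50 points (exact permutation p = 0.00439), a setting chosen after seeing the data. With all 10 kb loops and only strict enclosure counted, the difference was −7.57 points (95% interval −9.07 to −6.06), negative on 12 of 12 chromosomes. Strict enclosure leaves out containing loops that share an anchor bin. Moved loops could land in any bin, whether or not a loop could be called there, and the part this played was not tested.

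Loops of 15 to 40 kb, taken as a class, lay inside longer loops more often as listed than after shifts. Containing loops of at least 60 kb were used for both classes. Of the 10 kb loops 572 (14.6%) lay inside one as listed, against 18.4% after shifts, and of the 2581 loops of 15 to 40 kb 518 (20.1%) lay inside one as listed, against 16.2% after shifts. The listed share was below the shifted share on 12 of 12 chromosomes for the 10 kb loops and above it on 11 of 12 for the loops of 15 to 40 kb. The difference between the classes in listed minus shifted share was −7.64 ± 3.83 points (SD, n = 12; exact two-sided sign-flip permutation p = 0.000977, adjusted 0.000977), with chromosome 10 as the exception. As listed and without shifts, the share of 10 kb loops inside differed from that of the 15 to 40 kb loops by −5.38 ± 3.63 points (SD, n = 12; 95% interval −7.69 to −3.07; exact permutation p = 0.000977, adjusted 0.000977).

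That comparison rested on the longer part of the 15 to 40 kb class. Loops of 15 to 25 kb lay inside a loop of at least 60 kb in 15.6% of cases as listed and 16.1% after shifts, with a mean difference of −0.87 points that was negative on 7 of 12 chromosomes. Against them, the listed difference was −0.74 points (95% interval −4.13 to 2.65, exact permutation p = 0.637). The difference in listed minus shifted share was then −3.24 points (95% interval −5.78 to −0.71, exact permutation p = 0.0195). Loops of 15 kb alone lay inside in 13.4% of cases (66 of 492).

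**Figure D4:**
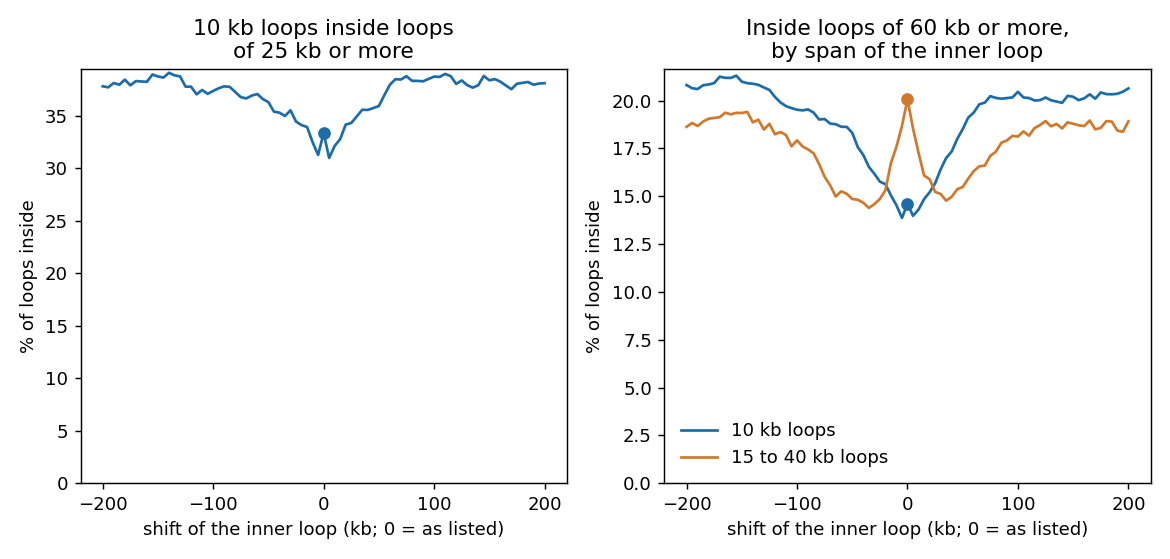
Percentage of loops that lie inside a longer loop when moved by up to 200 kb to either side, with the listed position at 0 marked by a dot; the left panel shows 10 kb loops in loops of 25 kb or more, the right panel 10 kb and 15 to 40 kb loops in loops of 60 kb or more. In the right panel the curve of the 10 kb loops is 14.6% at the listed position, lowest 5 kb to either side of it (13.9% and 14.0%) and higher beyond 25 kb, whereas that of the 15 to 40 kb loops has a peak of 20.1% at the listed position.

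Seen from the longer loops, the larger ones were mostly free of 10 kb loops. Of 1619 loops of 25 to 40 kb, 59.4% enclosed none, and of 747 loops of 100 to 200 kb, 74.2% enclosed none. Of 629 loops of 205 to 500 kb, 87.6% enclosed none (95% interval 84.8 to 90.1%), and of 319 loops of 505 to 1000 kb, 85.0% did. Per Mb of span there were 15.6 loops of 10 kb inside loops of 25 to 40 kb, 3.40 inside loops of 100 to 200 kb and 0.380 inside loops of 505 to 1000 kb. The larger loops also lay more often in the interior, where 10 kb loops are scarce: 43.9% of loops over 200 kb were in the chromosome ends.

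Few loops enclosed many of them. A loop of 955 kb at 86120001 to 87080000 on chromosome 1 held 19 loops of 10 kb, the most of any. The next 4 were loops of 400 to 445 kb between 63725001 and 64195000 on chromosome 8, which held 8 to 10 each and overlap each other, so that they largely enclose the same 10 kb loops. At most 18 loops of at least 25 kb lay around a single 10 kb loop, and 408 of the 10 kb loops lay inside 2 or more.

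The 10 kb loops shared anchor bins with longer loops more often than nearby positions did. Of the 3916, 1069 (27.3%, 95% interval 25.9 to 28.7%) had an anchor bin in common with a loop of at least 25 kb, against 21.0% after shifts of 25 to 100 kb. The mean difference over chromosomes was 6.33 ± 3.11 percentage points (SD, n = 12; 95% interval 4.35 to 8.31; exact two-sided sign-flip permutation p = 0.000488, adjusted 0.000814). It was positive on 12 of 12 chromosomes, from 1.91 points on chromosome 5 to 12.2 points on chromosome 7. Here too, moved loops could land in bins where no loop could be called, whereas listed loops could not. How much of the difference this accounts for was not tested. The longer loop enclosed the 10 kb loop in 474 of the 1069, ran away from it in 443, and 152 had longer loops of both kinds. Both anchor bins of a 10 kb loop also anchored a longer loop in 138 cases.

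Around the anchors of long loops the 10 kb loops had an uneven profile. Loops of at least 100 kb, of which there were 1695, were lined up at both anchors. At 50 to 100 kb outside an anchor, 10 kb loops occurred at 3.81 to 4.45 per Mb in 10 kb steps, and in the last 10 kb before it at 6.25 per Mb. In the first 10 kb inside they occurred at 6.05 per Mb, and then at 3.54, 2.42, 2.24 and 1.65 per Mb in the next steps. Within 50 kb of the anchors the inside held 0.636 times the density of the outside, and the inside had fewer 10 kb loops on 11 of 12 chromosomes. Around the 895 such loops of the chromosome ends this ratio was 0.668. Loops of 15 to 40 kb were also sparser inside, with a ratio of 0.737 around all 1695 long loops. A 10 kb loop that shares the anchor bin has its midpoint 5 kb from the anchor and a longer one has it further away, so profiles of different spans cannot be compared step by step. Long loops that overlap or share an anchor enter this profile more than once, and the ratios carry no test.

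**Figure D5:**
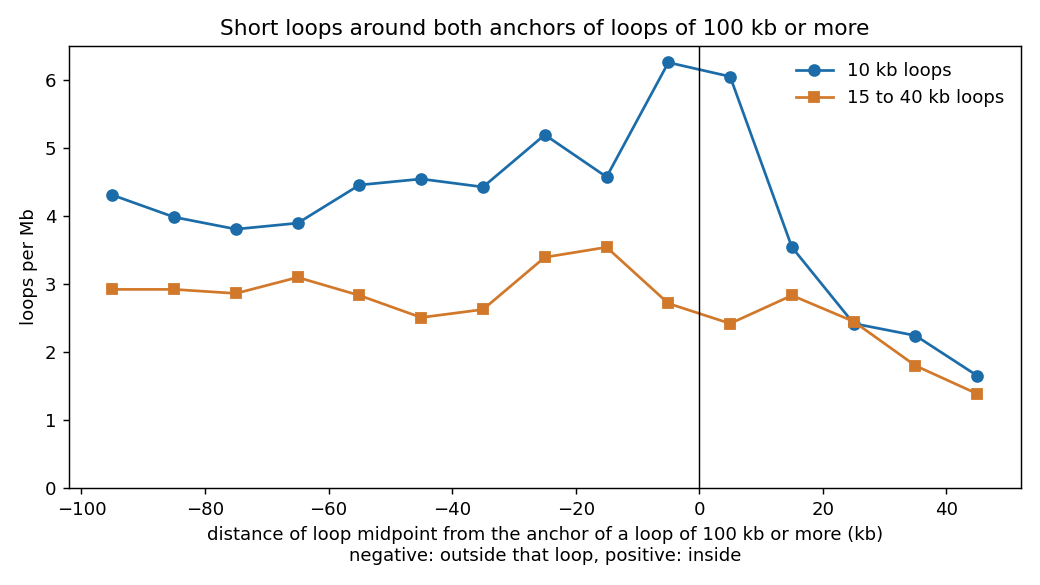
Loops of 10 kb and of 15 to 40 kb per Mb by the distance of their midpoint from the anchors of the 1695 loops of 100 kb or more, in steps of 10 kb, with negative distances outside the long loop and positive distances inside. The 10 kb loops are densest next to the anchor, at 6.25 per Mb outside and 6.05 per Mb inside, and reach 1.65 per Mb at 40 to 50 kb inside; loops of 15 to 40 kb that share an anchor have their midpoints further from it.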

How the data were processed

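The loop list is deposited as the authors' combined list for both Hi-C samples, with the midpoints of 2 anchor bins per loop and no other value. Positions are in base pairs, as deposited, and all lie at bin centres of 5 kb. HiC-Pro 3.1.0 is named in the submitters' processing notes and FitHiC in the name of the list; its settings, genome build and read depth are not stated by these sources. The leaf list (Genrich 0.6, per the submitters' processing notes) gave peak numbers per chromosome only.

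Loops with a span of 10 kb were the members. Nesting was compared with fixed shifts, without any draw. Mean differences over 12 chromosomes were tested by exact permutation of signs, two-sided (4096 sign patterns), adjusted by Benjamini-Hochberg over 5 tests; intervals use the spread over chromosomes. The calculations were tested on simulated data (Python 3.11.15, numpy 2.4.6, pandas 2.3.3, scipy 1.17.1, matplotlib 3.10.9). Regions were named by rank: the 10 fullest windows, and the 5 longest stretches, largest groups, longest chains and fullest enclosing loops. Chains of 4 were tied and are all given, as is the window tied with the tenth. The members, lists and tests were chosen with earlier results of these data known; the comparison of listed minus shifted shares between span classes was added later.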

Additional observations from a re-analysis of the deposited data

How the results depend on the processing

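Of 25 alternatives, 17 kept the direction and, where tested, the side of the 0.05 threshold. The excess of 10 kb loops in the chromosome ends shrank to 0.60 percentage points against loops of 15 to 40 kb (exact permutation p = 0.504). The lower share inside longer loops was −0.67 points with shifts of 15 to 25 kb, and the difference from loops of 15 to 40 kb in being inside was −0.74 points against loops of 15 to 25 kb; the cause was not tested. Descriptive shares moved by construction: 45.4% of loops were 10 kb loops among those up to 200 kb, 59.5% and 93.4% had a neighbour within 25 and 100 kb, and 63.3% and 45.1% of windows were empty at 500 kb and 2 Mb. No paired analysis was possible because the lists carry no values per sample, which also meant that neither sample could be left out. The depth is unknown, so no lower limit can be given for contacts that were not listed.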
